A study of Mus musculus with 8 samples.

Results

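Fabp3, Ptgr1, Tspan8, Lgals3, Anxa2, Fgfbp1, Plac1 and Dppa1 were followed in mouse blastocysts. These 8 genes were grouped under the label of differentiated trophoblast markers, mostly of the cell surface, lipid handling or secretion. That label belongs to the group and was not established for each gene. The 8 genes were picked by name, among 55471 annotated genes, partly because several were lower in embryos carrying the G77S form of Isca2 than in wild type. Their G77S levels are therefore given here as a description, and counts of them past a threshold in G77S are not read as a test. All 8 passed the low-count filter that left 13953 genes for testing, and the label of trophoblast marker was read against keratins, trophectoderm factors and genes of later placental cells below.

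The study sequenced RNA from mouse blastocysts at embryonic day 4.5 (E4.5) to compare genotypes of Isca2, whose product is a mitochondrial protein of iron-sulfur cluster assembly. The libraries comprised 2 from Isca2 knockouts (Isca2-/-, called KO), 3 from embryos homozygous for a G77S substitution (Isca2 G77S/G77S, called G77S) and 3 from wild type (WT). Per the labels' protocols, heterozygous Isca2+/- females were given gonadotropins and mated with heterozygous males, and the embryos were cultured; which cross gave the G77S embryos is not stated. The labels name neither the number of embryos in a library nor its litter, sex or preparation date, so every p-value here measures only spread from library to library, part of which may be technical.

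The blastocyst consists of an outer epithelium, the trophectoderm, around the inner cell mass, which in turn gives the epiblast and the primitive endoderm. Trophectoderm away from the inner cell mass differentiates first, towards trophoblast giant cells, and takes on adhesion molecules, lectins and lipid-handling proteins used at implantation. Cytosolic fatty acid-binding proteins such as Fabp3 carry long-chain fatty acids between membranes and mitochondria. Galectins and tetraspanins organise glycoproteins at the cell surface, and annexins bind acidic phospholipids when calcium is present.

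Total expected counts per library, the deposited estimates of reads per gene, ranged from 10323965 to 23842619. Isca2 itself stood at 4.84 and 6.2 CPM (counts scaled to the library's total) in KO libraries and 89.1, 105 and 133 CPM in G77S libraries, against 86.9, 173 and 154 CPM in WT libraries, so the knockout labels held in both KO libraries. Its fold change in KO against WT was -4.64 on the log2 scale (SE 0.41, edgeR adjusted p = 0.00387). The mean sequenced fragment was 181.4 to 185.1 bases in G77S libraries and 243.4 and 291.1 bases in KO libraries, against 242.7 to 275.5 bases in WT libraries. All G77S libraries thus had shorter fragments than all others, so effects of preparation or sequencing cannot be told apart from those of the genotype. Reads of Y-linked genes were near 0 in G77S replicate 1 and WT replicate 1, at 0.07 and 0.335 CPM, and 215 to 418 CPM in the other libraries.

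The sequence before the RefSeq start is shown for the genes on which the results turn. It is 250 bases on GRCm38.p6, written 5' to 3' in the direction of the gene. Starts differ between annotations. The GENCODE transcript of Fabp3 begins inside its window, at 130308595, as do 1 Anxa2 transcript, at 69453620, and the proximal Plac1 transcript, at 53114530. Tspan8 transcripts begin near the end of its window, at 115817271 and 115817283, and another runs across the whole window, from 115816832 to 115833312. The distal Plac1 transcript begins at the last base of its window, 53240111. Such windows therefore lie partly or, for Tspan8, wholly inside the span of a GENCODE transcript, introns included. All 8 genes had an entry, with 9 windows in all because Plac1 has both a distal and a proximal start. The genes shown include those with the lowest G77S values relative to WT (Plac1, Tspan8 and Fabp3), Anxa2, which was not lower, and Fgfbp1, which shares a motif with Fabp3. Capitals mark matches to 1 of 6 motifs searched on both strands.
Fabp3, chr4:130308488-130308737, plus strand: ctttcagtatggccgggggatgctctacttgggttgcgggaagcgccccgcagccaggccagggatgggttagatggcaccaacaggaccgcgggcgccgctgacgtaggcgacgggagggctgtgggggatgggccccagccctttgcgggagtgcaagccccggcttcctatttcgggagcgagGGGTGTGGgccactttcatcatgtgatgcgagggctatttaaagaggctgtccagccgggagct
Fgfbp1, chr5:43981800-43982049, minus strand: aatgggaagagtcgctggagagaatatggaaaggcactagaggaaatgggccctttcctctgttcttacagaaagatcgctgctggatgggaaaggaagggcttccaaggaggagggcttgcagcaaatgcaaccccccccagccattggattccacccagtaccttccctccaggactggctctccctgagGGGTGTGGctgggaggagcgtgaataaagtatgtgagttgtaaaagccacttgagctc
Tspan8, chr10:115817034-115817283, plus strand: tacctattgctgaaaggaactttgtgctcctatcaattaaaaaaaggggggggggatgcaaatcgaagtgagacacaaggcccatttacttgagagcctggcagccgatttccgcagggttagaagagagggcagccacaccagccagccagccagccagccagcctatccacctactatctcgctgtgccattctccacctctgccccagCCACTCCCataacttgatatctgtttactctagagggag
Plac1 distal start, chrX:53240111-53240360, minus strand: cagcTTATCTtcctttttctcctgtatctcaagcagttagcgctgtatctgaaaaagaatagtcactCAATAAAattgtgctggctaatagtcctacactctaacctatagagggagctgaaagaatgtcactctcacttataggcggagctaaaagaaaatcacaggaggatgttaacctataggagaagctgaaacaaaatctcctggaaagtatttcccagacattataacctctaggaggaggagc
Plac1 proximal start, chrX:53114406-53114655, minus strand: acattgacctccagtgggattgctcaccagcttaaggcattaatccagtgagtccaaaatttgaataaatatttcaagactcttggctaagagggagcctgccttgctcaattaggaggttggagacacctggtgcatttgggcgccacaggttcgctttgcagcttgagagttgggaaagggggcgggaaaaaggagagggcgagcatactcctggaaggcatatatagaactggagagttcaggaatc
Anxa2, chr9:69453433-69453682, plus strand: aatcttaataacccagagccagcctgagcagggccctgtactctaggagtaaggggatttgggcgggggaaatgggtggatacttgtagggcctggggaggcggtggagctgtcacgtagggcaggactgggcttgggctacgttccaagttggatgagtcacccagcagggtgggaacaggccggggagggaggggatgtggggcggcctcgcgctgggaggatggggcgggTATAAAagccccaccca

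The KLF motif GGGNGTGG matched in Fabp3 from 64 to 57 bases before the RefSeq start and in Fgfbp1 from 58 to 51. In Tspan8 it matched on the opposite strand, from 39 to 32 bases before the RefSeq start. In Fabp3 and Fgfbp1 the matched letters were the same, GGGTGTGG. Among 32851 mouse promoter windows of the same length, 15.9% held this motif. The distal Plac1 window held the letters AGATAA, a motif of GATA factors found in 9.99% of all windows, and TTTATNG, a motif of CDX factors found in 9.81%, each on the opposite strand. The Dppa1 window held both of these and the AP-2 motif GCCNNNGGC (13.7%). Anxa2 had the TATA-box letters TATAAA (12.4%) from 17 to 12 bases before its RefSeq start. This match, like the Fabp3 and Tspan8 KLF matches, lies inside the span of a GENCODE transcript of its gene, introns included. The TEAD motif GGAATG (12.6%) was found in none of the 9 windows. The proximal Plac1, Ptgr1 and Lgals3 windows held none of the 6 motifs. G and C made up 64.8% of the Fabp3 window and 40.4% of the distal Plac1 window, against a median of 52.4% over all windows.

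In KO blastocysts none of the 8 genes differed detectably from WT. The median of their log2 fold changes in KO against WT was -0.06, the same as over all genes tested (-0.06), and single values lay between -0.45 for Fgfbp1 and 0.14 for Lgals3. By edgeR's quasi-likelihood test with Benjamini-Hochberg adjustment, 0 of 8 were called, with adjusted p from 0.73 to 0.986, and 0 had an unadjusted p under 0.05, beside 13% of all genes. DESeq2, which called 4.49% of all genes, and limma on log2(TPM + 1), which called 0.681%, also called 0 of 8. By edgeR, 0.122% of all genes were called in this comparison, 0.043% lower and 0.0788% higher. KO and WT libraries overlapped for each of the 8 genes, while over all genes 12.5% had both KO libraries below every WT library and 13.1% had both above. The KO libraries were not used by name in choosing the genes, although the WT libraries they are set against were.

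The intervals show how large a KO difference these libraries could still hide. The 95% interval of the KO over WT fold was 0.707 to 1.5 for Fabp3, 0.742 to 1.62 for Anxa2 and 0.617 to 1.54 for Tspan8. For the least abundant gene, Fgfbp1, it ran from 0.258 to 2.08. None of these intervals shows that KO and WT levels are alike.

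In G77S blastocysts 7 of the 8 genes had a negative log2 fold change against WT, with a median of -1.53 against 0.03 over all genes tested, and Anxa2 had a value near 0. The 5 genes past edgeR's threshold, all lower, were Fabp3, Tspan8, Plac1, Ptgr1 and Dppa1, beside 3.39% of all genes called, 2.09% lower and 1.3% higher. In the same 5 genes every G77S library lay below every WT library, beside 11.8% of all genes, and in 0 of the 8 did every one lie above, beside 17.2%. Since G77S values chose the genes, nothing is read from these counts. Against KO, 6 of the 8, these 5 and Lgals3, had every G77S library below both KO libraries, beside 20.0% of all genes, and 0 had every one above, beside 24.9%. With each library's trend over gene length taken off, the G77S values against WT were -2.24 for Fabp3, -2.62 for Tspan8 and -3.00 for Plac1, the sign unchanged. In bulk RNA, fewer trophoblast cells in an embryo and less of these RNAs in each cell cannot be told apart.

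**Figure D1:**
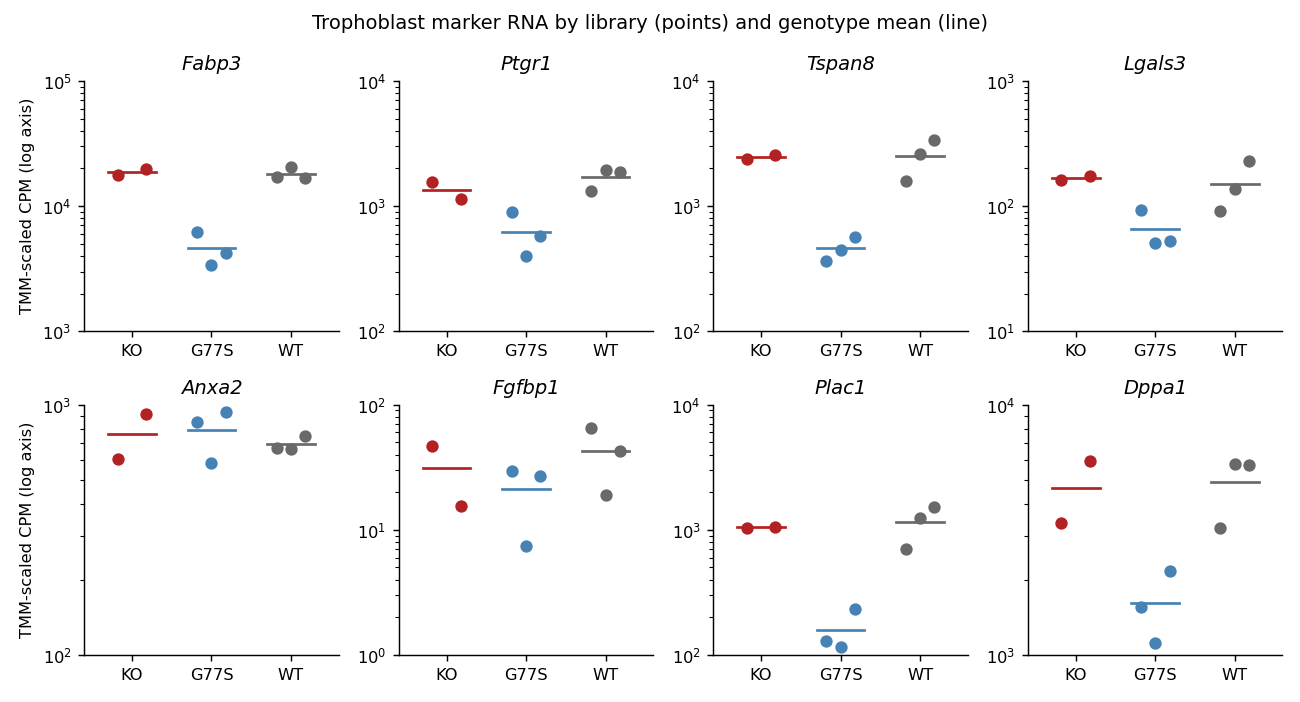
CPM of each of the 8 genes in every library on a log axis, with KO, G77S and WT from left to right and 1 point per library. G77S points sit below all KO and WT points for Fabp3, Tspan8, Plac1, Ptgr1 and Dppa1. For Anxa2 the G77S points, from 584 to 933 CPM, span those of KO and WT.

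Of the lipid-handling genes, Fabp3 encodes the heart-type fatty acid-binding protein (ENSMUSG00000028773, plus strand, chr4:130308595-130315463 on GRCm38). It had 17830 and 19655 CPM in KO libraries and 6206, 3396 and 4216 CPM in G77S libraries, against 17156, 20519 and 16936 CPM in WT libraries. The KO and WT values interleaved, and the highest G77S library was well below the lowest of them. The log2 fold change was -1.98 (SE 0.23) for G77S against WT, a WT level 3.95 times that of G77S, and 0.04 (SE 0.25, edgeR adjusted p = 0.978) for KO against WT.

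Fabp3 was among the most abundant transcripts of the blastocyst. In TPM, a share of all transcripts that corrects for length, it ranked 3 and 2 among all genes in KO libraries and 8, 11 and 9 in G77S libraries, against 1, 1 and 3 in WT libraries. It alone took 2.3% and 2.19% of TPM in KO libraries and 0.889%, 0.563% and 0.656% in G77S libraries, against 2.74%, 2.58% and 2.1% in WT libraries. The 8 genes together took 3.06% and 3.12% of TPM in KO libraries and 1.25%, 0.866% and 1.15% in G77S libraries, against 3.57%, 3.7% and 3.24% in WT libraries. Fabp3 supplied 57% to 76.9% of that sum in each library, so the sum mainly follows Fabp3. A processed pseudogene, Fabp3-ps1, is 99.3% identical to the Fabp3 transcript over 402 bases and held 203 to 1297 expected counts, against 48588 to 370939 for Fabp3. Zcchc17, on the opposite strand, overlaps Fabp3 and held 806 to 1673 expected counts; whether counting used strand is not given in the sources used here.

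Ptgr1, prostaglandin reductase 1, reduces 15-oxo-prostaglandins and oxidises leukotriene B4 (ENSMUSG00000028378, minus strand, chr4:58965439-58987119). It had 1553 and 1149 CPM in KO libraries and 895, 399 and 576 CPM in G77S libraries, against 1310, 1929 and 1887 CPM in WT libraries. The G77S libraries lay below the others, but G77S replicate 1 approached KO replicate 2. On the log2 scale, G77S differed from WT by -1.45 (SE 0.30) and KO from WT by -0.34 (SE 0.33, edgeR adjusted p = 0.73), the lowest p among the 8 in KO.

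Among the surface genes, Tspan8 encodes a tetraspanin that partners integrins in membrane microdomains (ENSMUSG00000034127, plus strand, chr10:115816832-115849893). It had 2380 and 2544 CPM in KO libraries and 367, 444 and 566 CPM in G77S libraries, against 1591, 2633 and 3354 CPM in WT libraries. All G77S libraries were far below the lowest WT library, and the KO libraries fell inside the WT range. The log2 fold change was -2.46 (SE 0.28) for G77S against WT, a WT level 5.51 times that of G77S, and -0.04 (SE 0.30, edgeR adjusted p = 0.986) for KO against WT.

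Lgals3, galectin-3, binds beta-galactosides and is a marker of mural trophectoderm (ENSMUSG00000050335, plus strand, chr14:47367751-47386160). Its values were 161 and 173 CPM in KO libraries and 92.5, 50.6 and 52.4 CPM in G77S libraries, against 90.9, 136 and 228 CPM in WT libraries. G77S replicate 1 and WT replicate 1 were almost equal, so the genotypes overlapped. G77S differed from WT by -1.22 on the log2 scale (SE 0.35), and KO by 0.14 (SE 0.39, edgeR adjusted p = 0.938).

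Anxa2, annexin A2, binds phospholipid with calcium and pairs with S100a10 at the plasma membrane (ENSMUSG00000032231, plus strand, chr9:69453620-69491795). It had 608 and 915 CPM in KO libraries and 856, 584 and 933 CPM in G77S libraries, against 672, 663 and 748 CPM in WT libraries. The genotypes overlapped fully. G77S differed from WT by 0.19 on the log2 scale (SE 0.23), and KO by 0.13 (SE 0.26, edgeR adjusted p = 0.895). The G77S value ranged over the alternatives from -0.03, once each library's trend with gene length was taken off, to 0.44 (SE 0.20) in limma on log2(TPM + 1), and the KO value was -0.09 in limma. In TPM, Anxa2 averaged 426 ± 91.1 in KO (SD, n = 2) and 616 ± 122 in G77S (SD, n = 3), against 450 ± 51.8 in WT (SD, n = 3).

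Anxa2 had the G77S value nearest to 0 of the 8. The other genes were set against it inside each library, which needs no scaling between libraries. Because that value picked Anxa2, lower ratios in G77S for genes with lower values were fixed in advance. The ratios are thus a description and add no evidence. The log2 TPM ratio of Fabp3 to Anxa2 was 5.48 and 5.99 in KO libraries and 3.16 to 3.84 in G77S libraries, against 5.55 to 6.01 in WT libraries. For Plac1 it was 0.79 and 1.38 in KO libraries and -2.24 to -1.54 in G77S libraries, against 0.63 to 1.59 in WT libraries. Plac1 RNA was thus above Anxa2 RNA per length in every KO and WT library and below it in every G77S library. The same held for Tspan8, with ratios of 1.77 and 2.26 in KO libraries and -0.98 to -0.13 in G77S libraries, against 1.57 to 2.44 in WT libraries. A ratio shows unequal change only, not which of the genes changed.

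Of the secreted proteins, Plac1 is an X-linked placental gene needed for normal placental growth in mice (ENSMUSG00000061082, minus strand, chrX:53069995-53240111). It had 1036 and 1052 CPM in KO libraries and 130, 115 and 232 CPM in G77S libraries, against 700, 1242 and 1515 CPM in WT libraries. The G77S libraries lay far below the rest, and this was the lowest G77S to WT ratio of the 8. The log2 fold change was -2.86 (SE 0.34) for G77S against WT, a WT level 7.26 times that of G77S, and -0.14 (SE 0.36, edgeR adjusted p = 0.927) for KO against WT. With a term for Y-linked RNA added to the fit, the G77S value was -2.78.

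Plac1 also differed in the length of the transcript counted. Its annotated transcripts are 1041 bases from the distal start, 1201 bases from the proximal start and 907 bases from a start between them. The abundance-weighted transcript length in the deposited tables was 1046 and 1042 bases in KO libraries and 1089, 1108 and 1096 bases in G77S libraries, against 1066, 1058 and 1051 bases in WT libraries. G77S libraries had the longest values and KO libraries the shortest. A length above that of the distal transcript needs some proximal transcript, and the length sets bounds on its share. The share was between 3.01% and 47.2% in KO replicate 1, between 0.856% and 46% in KO replicate 2, and at least 30.2%, 41.7% and 34.4% and at most 62%, 68.3% and 64.3% in G77S replicates 1, 2 and 3, against at least 15.8%, 10.4% and 5.96% and at most 54.2%, 51.2% and 48.8% in WT replicates 1, 2 and 3. These bounds overlap between genotypes, so the shares themselves cannot be ranked. The lengths are estimates by RSEM from short reads. The G77S libraries had the longest lengths with the shortest fragments, whereas within KO and within WT the length was greater where fragments were longer.

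Fgfbp1 encodes a secreted carrier that releases fibroblast growth factors from the matrix (ENSMUSG00000048373, minus strand, chr5:43978858-43981779). It was the least abundant of the 8, at 46.9 and 15.4 CPM in KO libraries and 29.7, 7.41 and 26.8 CPM in G77S libraries, against 65.5, 18.9 and 43 CPM in WT libraries. Values within 1 genotype differed about as much as values between genotypes. The fitted WT level was 2 times that of G77S (SE 0.61 on the log2 scale), and KO differed from WT by -0.45 on the log2 scale (SE 0.68, edgeR adjusted p = 0.857).

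Dppa1, which is not placed here among surface, lipid or secreted proteins, shares its name with the other Dppa genes given below (ENSMUSG00000064010, minus strand, chr11:46607772-46629261). It had 3377 and 5943 CPM in KO libraries and 1548, 1118 and 2157 CPM in G77S libraries, against 3215, 5770 and 5728 CPM in WT libraries. All G77S libraries were below the lowest KO and WT libraries, while KO replicate 1 and WT replicate 1 formed a low pair among the others. The log2 fold change was -1.61 (SE 0.32) for G77S against WT and -0.07 (SE 0.35, edgeR adjusted p = 0.972) for KO against WT. A non-coding gene, Gm12171, is 90.4% identical to Dppa1 over 1177 bases but held 27 to 360 expected counts.

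**Figure D2:**
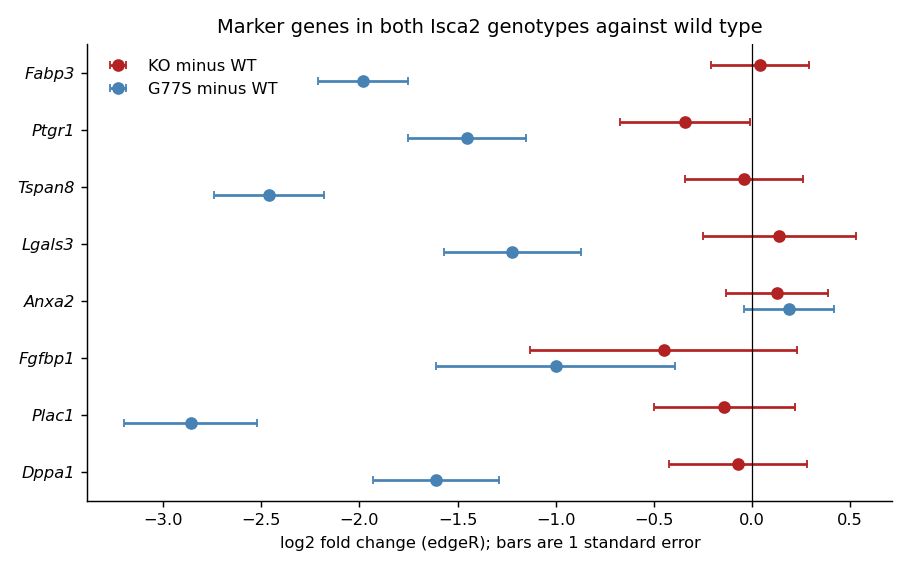
log2 fold change of each gene with its standard error, KO against WT and G77S against WT. KO values lie between -0.45 and 0.14, and G77S values run from -2.86 for Plac1 to 0.19 for Anxa2.

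Patterns over the 8 libraries were compared by the root mean square difference of log2(CPM + 1) values after taking off each gene's mean, over 5743 genes with at least 10 CPM on average; these likenesses are descriptions over libraries that share their genotypes. Tspan8 and Plac1 were the closest pair among the 8, at 0.26, against 1.47 for the farthest pair, Plac1 and Anxa2. Nearest to Fabp3 were Dkkl1 at 0.18, Nmrk1 at 0.27 and Mdh1 at 0.28. Nearest to Tspan8 were Ptprk, Tmem106b and Cryzl1, at 0.24 to 0.26, and nearest to Plac1 were Tceal9, Sri and Gstk1, at 0.31 to 0.34. For Ptgr1 they were Homer2, Tpi1 and Cstb (0.22 to 0.24), and for Dppa1 they were Xrcc4, Ndufs4 and Uqcr11 (0.27 to 0.30). Lgals3 was nearest to Nmd3, Borcs8 and Ppp1r14d (0.26 to 0.29). Fgfbp1 had no gene as near, its closest being Grhl1, Zcchc7 and Tec (0.43 to 0.49). Anxa2 varied little and was closest to Slc30a6, Snrpd2 and Hat1 (0.14 to 0.16).

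The families of these genes held genes of both directions. In KO, edgeR called none of the tested genes in the families and trophoblast lists that follow, although some had an unadjusted p under 0.05, as did 13% of all genes tested: 2 of 19 fatty acid genes, 7 of 22 tetraspanins, 1 of 6 galectins, 5 of 10 annexins with S100a10, 1 of 12 prostaglandin and leukotriene enzymes, 2 of 7 Dppa and Plac genes and 6 of 14 FGF genes. The same held for 5 of 16 trophectoderm factors, 4 of 19 epithelial genes and 1 of 11 placental genes. DESeq2, which called 4.49% of all genes in KO, called 2 tetraspanins, 2 annexins, 1 gene of the Dppa and Plac names, 2 FGF genes, 2 trophectoderm factors, 1 epithelial and 1 placental gene, and 0 elsewhere. With limma on log2(TPM + 1), which called 0.681% of all genes in KO, 2 annexins and 1 gene of the Dppa and Plac names were called, and 0 elsewhere.

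In G77S the other tools called more genes overall than edgeR, 10.9% by DESeq2 and 10.5% by limma on log2(TPM + 1). Both called 1 fatty acid gene higher and 2 lower, 2 galectins higher and 1 lower, 1 prostaglandin or leukotriene enzyme higher and 2 lower, and 4 Dppa or Plac genes higher and 1 lower. For tetraspanins DESeq2 called 1 higher and 4 lower, and limma 1 higher and 3 lower. For FGF genes DESeq2 called 1 higher and limma 2. Of the trophectoderm factors DESeq2 called 1 higher and 4 lower, and limma 1 higher and 3 lower. The counts for epithelial genes were 2 higher and 7 lower by DESeq2 and 1 higher and 1 lower by limma, and for placental genes 1 higher and 1 lower by DESeq2 and 1 higher by limma.

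Among 19 tested genes of fatty acid binding and uptake, 1 was called higher and 1 lower in G77S and 0 in KO, with a median log2 fold change of -0.26 in G77S and -0.56 in KO. Fabp5, the epidermal fatty acid-binding protein, had 84.6 and 84.5 TPM in KO libraries and 817, 520 and 496 TPM in G77S libraries, against 65.7, 68.3 and 66 TPM in WT libraries. It rose in G77S by 2.98 on the log2 scale (SE 0.28, edgeR adjusted p = 0.00138), the opposite direction to Fabp3. The ratio of Fabp3 to Fabp5 TPM was 272 and 259 in KO libraries and 10.9, 10.8 and 13.2 in G77S libraries, against 418, 377 and 318 in WT libraries. Fabp3 remained the more abundant of the pair in every library. Dbi, which binds acyl-CoA, averaged 910 ± 110 CPM in KO (SD, n = 2) and 223 ± 47.5 CPM in G77S (SD, n = 3), against 668 ± 52.7 CPM in WT (SD, n = 3), and fell in G77S by 1.58 on the log2 scale (SE 0.21, edgeR adjusted p = 0.00431).

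**Figure D3:**
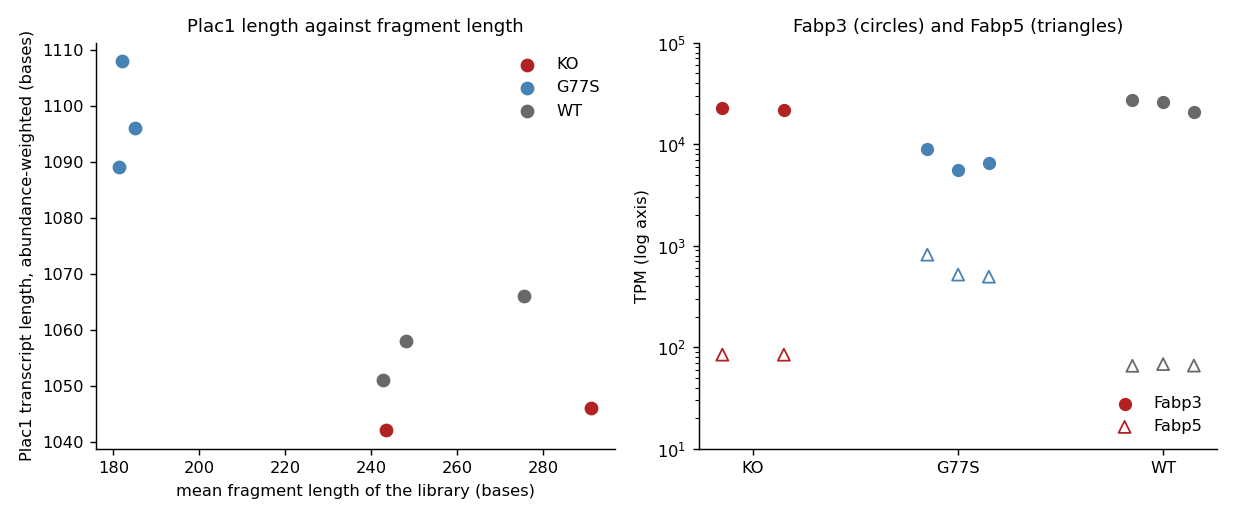
Mean transcript length of Plac1 in bases, and TPM of Fabp3 and Fabp5 on a log axis, 1 point per library for KO, G77S and WT. G77S libraries have the longest Plac1 lengths (1089 to 1108 bases), the lowest Fabp3 and the highest Fabp5.

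Galectins were split. Of 6 tested, 1 was called lower in G77S and 0 in KO, and the median was 1.16 in G77S and -0.71 in KO. Lgals1, galectin-1, averaged 4087 ± 218 CPM in KO (SD, n = 2) and 373 ± 155 CPM in G77S (SD, n = 3), against 4665 ± 1715 CPM in WT (SD, n = 3). It fell in G77S by 3.64 on the log2 scale (SE 0.37, edgeR adjusted p = 0.00192), and the call held in all 18 alternative settings.

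Tetraspanins gave 3 genes called lower of 22 tested in G77S and 0 in KO, with medians of -0.25 in G77S and -0.10 in KO. Cd9, which supports membrane fusion and adhesion, averaged 3631 ± 184 CPM in KO (SD, n = 2) and 1782 ± 219 CPM in G77S (SD, n = 3), against 4109 ± 1201 CPM in WT (SD, n = 3). It fell in G77S by 1.21 on the log2 scale (SE 0.23, edgeR adjusted p = 0.0216). Cd82 fell by 2.44 (edgeR adjusted p = 0.036) and Tspan33 fell by 5.33 (edgeR adjusted p = 0.0314). Each of these calls was lost when any 1 G77S library was left out, with adjusted p of up to 0.125 for Cd9, 0.155 for Cd82 and 0.107 for Tspan33 by edgeR. Cd9 was also lost without WT replicate 2 (0.0758) or 3 (0.0694), Cd82 without WT replicate 1 (0.0605) or 2 (0.0674), and Tspan33 without WT replicate 1 (0.0593). Tspan33 was lost with a term for Y-linked RNA too (0.0596), and Cd82 in limma on log2(TPM + 1) (0.0509).

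Of the annexins and S100a10, 0 of 10 were called in G77S or KO by edgeR; in G77S, 4 had an unadjusted p under 0.05, and DESeq2 and limma each called 1 higher and 1 lower. The median was -0.12 in G77S and -0.00 in KO. Anxa3 averaged 725 ± 142 CPM in KO (SD, n = 2) and 267 ± 66.4 CPM in G77S (SD, n = 3), against 389 ± 128 CPM in WT (SD, n = 3), with edgeR adjusted p of 0.239 for KO and 0.299 for G77S. S100a10, the Anxa2 partner, averaged 564 ± 207 CPM in KO (SD, n = 2) and 416 ± 132 CPM in G77S (SD, n = 3), against 317 ± 55.5 CPM in WT (SD, n = 3), with edgeR adjusted p of 0.293 for KO and 0.483 for G77S.

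Of 12 tested prostaglandin and leukotriene enzymes, the pathway of Ptgr1, 2 were called lower in G77S and 0 in KO, with medians of -0.12 in G77S and -0.26 in KO. Both belong to the leukotriene branch. Ltc4s, leukotriene C4 synthase, averaged 49.5 ± 27.1 CPM in KO (SD, n = 2) and 1.71 ± 0.612 CPM in G77S (SD, n = 3), against 69 ± 32.1 CPM in WT (SD, n = 3), and fell by 5.33 in G77S on the log2 scale (SE 0.56, edgeR adjusted p = 0.00241). Lta4h, leukotriene A4 hydrolase, fell by 1.75 in G77S (SE 0.27, edgeR adjusted p = 0.00903), and that call was lost without G77S replicate 1 (0.0502) or replicate 2 (0.0523). Ptgs1, Ptgs2, Tbxas1, Alox5 and Pla2g4a were listed at 0 in every library.

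Of 7 tested genes that share the Dppa or Plac names, 3 were called higher and 0 lower in G77S, and 0 were called in KO, with medians of 1.07 in G77S and 0.05 in KO. Dppa2 rose in G77S by 1.07 on the log2 scale (SE 0.18, edgeR adjusted p = 0.012) and Plac9b by 2.01 (SE 0.36, adjusted p = 0.0161). Dppa4 rose in G77S to 290 ± 22.5 CPM (SD, n = 3), against 109 ± 25.1 CPM in WT (SD, n = 3, edgeR adjusted p = 0.0123). Dppa2 and Dppa4 are partner chromatin proteins of early embryos. Dppa5a, picked out once its values were known, was the most abundant of the list and the 1 with a negative G77S value. It averaged 11378 ± 1157 CPM in KO (SD, n = 2) and 5520 ± 1218 CPM in G77S (SD, n = 3), against 11026 ± 3381 CPM in WT (SD, n = 3), with an edgeR adjusted p of 0.0594 for G77S. Without G77S replicate 1 or 2 these calls were lost, at adjusted p of up to 0.0534 for Dppa2, 0.0595 for Dppa4 and 0.0665 for Plac9b, the last of which was also lost without G77S replicate 3 (0.0569) or WT replicate 3 (0.061).

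Of 14 tested genes of FGF signalling, the setting of Fgfbp1, 1 was called higher in G77S and 0 in KO, with medians of 1.34 in G77S and 0.73 in KO. Spry2, an inhibitor induced by FGF signals, averaged 46.4 ± 11.5 CPM in KO (SD, n = 2) and 44.6 ± 17.3 CPM in G77S (SD, n = 3), against 4.61 ± 3.76 CPM in WT (SD, n = 3). By edgeR it rose in G77S by 3.25 on the log2 scale (SE 0.71, adjusted p = 0.0372), and it was 3.31 higher in KO without passing the threshold (SE 0.74, adjusted p = 0.124). The G77S call was lost without any 1 G77S library (adjusted p up to 0.134), without KO replicate 2 (0.0545) and without WT replicate 3 (0.0914).

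**Figure D4:**
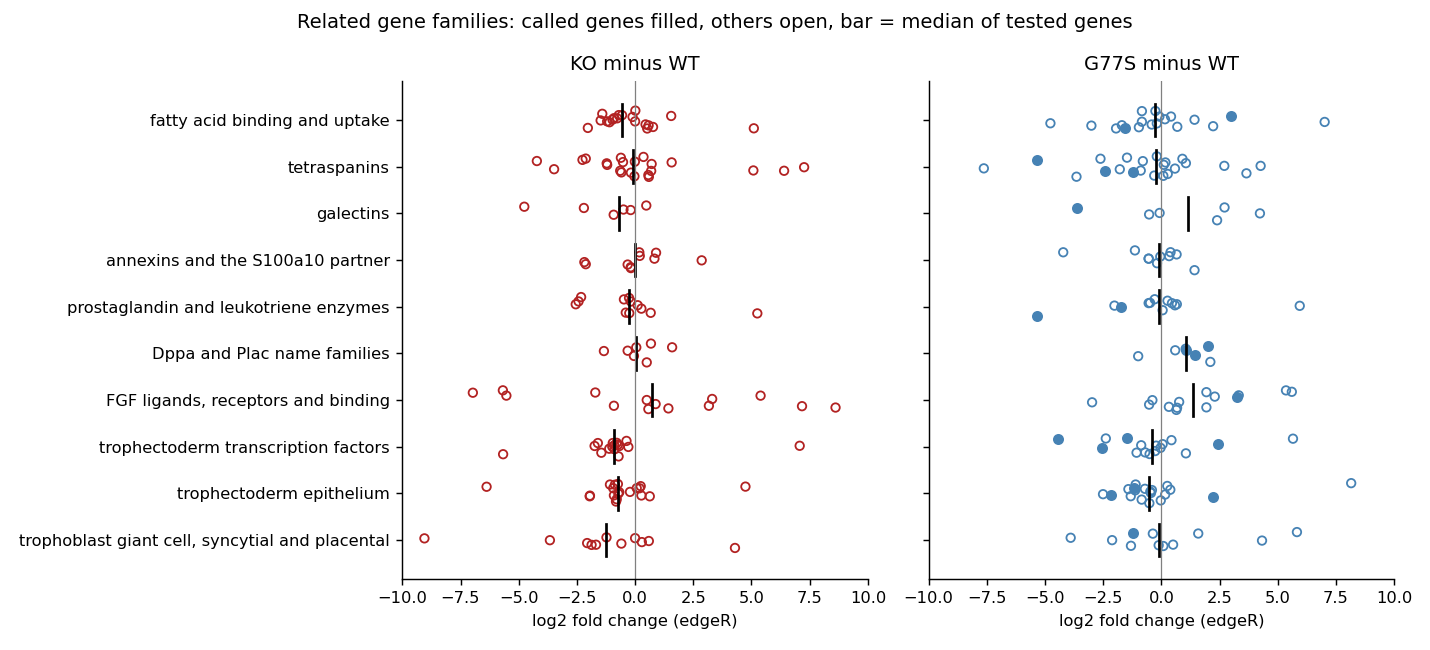
log2 fold change against WT of every tested gene in each family and trophoblast list, KO on the left and G77S on the right, with filled points for genes called by edgeR and a bar at the median. Each list spreads on both sides of 0 in G77S, and no point is filled in KO.

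The trophoblast label was read against 3 lists. Of 16 tested trophectoderm transcription factors, 1 was called higher and 3 lower in G77S and 0 in KO, with medians of -0.39 in G77S and -0.89 in KO. In KO, 15 of the 16 had a negative log2 fold change, beside 52.7% of all genes. Id2, an inhibitor of helix-loop-helix factors that marks trophectoderm, fell in G77S by 1.48 on the log2 scale (SE 0.18, edgeR adjusted p = 0.00337), a call held in all 18 alternatives. Elf5, a trophoblast stem cell factor, fell by 4.43 (edgeR adjusted p = 0.0475), and Msx2 rose by 2.42 (edgeR adjusted p = 0.0419). Gata2, picked out once its value was known, fell by 2.55 (edgeR adjusted p = 0.0484). The Elf5 call was lost without any 1 G77S or WT library, at adjusted p of up to 0.19, and so were those of Msx2, at up to 0.154, and Gata2, at up to 0.148. Gata2 was lost with the Y-linked term (0.0534) and in limma on log2(TPM + 0.1) (0.0508) as well. Cdx2, the defining trophectoderm factor, averaged 4.71 ± 1.94 CPM in KO (SD, n = 2) and 11 ± 4.17 CPM in G77S (SD, n = 3), against 8.15 ± 4.93 CPM in WT (SD, n = 3).

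Of 19 genes of the trophectoderm epithelium, 1 was called higher and 2 lower in G77S and 0 in KO, with medians of -0.52 in G77S and -0.74 in KO. The keratins Krt18 and Krt7 fell in G77S by 1.20 (SE 0.23, edgeR adjusted p = 0.0222) and 2.16 (SE 0.41, adjusted p = 0.0196) on the log2 scale, and Cldn6, a tight junction protein, rose by 2.22 (SE 0.36, adjusted p = 0.0106). Both keratin calls were lost without any 1 G77S library, at adjusted p of up to 0.126 for Krt18 and 0.104 for Krt7. Krt18 was also lost without WT replicate 3 (0.0518) and Krt7 without WT replicate 2 (0.0697), and Cldn6 was lost without G77S replicate 1 (0.0502) or 2 (0.0609). In limma on log2(TPM + 1) and log2(TPM + 0.1) Krt18 was lost (0.0558 and 0.0614), and on log2(TPM + 0.1) Krt7 was lost (0.0522). Summed Krt8 and Krt18 stood at 6899 and 3813 TPM in KO libraries and 2932, 2831 and 3091 TPM in G77S libraries, against 7464, 3879 and 4340 TPM in WT libraries, so an abundant epithelial keratin pair was present in every library.

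Genes of later placental cells were in part listed at 0. Of 22 listed, 11 passed the filter and 7, Prl3d1, Prl2c2, Prl7d1, Ctsq, Tpbpa, Psg17 and Hsd3b6, were listed at 0 in every library, among them defining giant cell and spongiotrophoblast markers. Those 7 genes gave no backing to the word differentiated in the group's label. Slc38a4, an amino acid transporter, fell in G77S by 1.24 on the log2 scale (SE 0.26, edgeR adjusted p = 0.0301) and was the sole call in this list. It was lost without any 1 G77S library, or without WT replicate 2 or 3, at adjusted p of up to 0.123, and in limma on log2(TPM + 1) (0.0537) and log2(TPM + 0.1) (0.06). The median of the 11 was -0.12 in G77S and -1.23 in KO, or -1.45 in KO with genes of 0 to 3 counts in a genotype set to their counts or to a floor of 3 counts over the group.

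Most tested markers of the other blastocyst lineages had positive log2 fold changes in both mutants, though edgeR called few. Their part in the values above was not tested. Values were positive for 9 of 13 epiblast genes in KO and 11 in G77S, and for 15 of 17 primitive endoderm genes in KO and 14 in G77S. In each mutant, 8 of 13 epiblast and 11 of 17 primitive endoderm genes had an unadjusted edgeR p under 0.05, in either direction. Over all genes this share was 13% in KO and 20% in G77S. Of 13 tested epiblast genes, 2 were called higher in G77S and 1 in KO, with medians of 1.93 in G77S and 1.11 in KO, and the summed level of the list was 211 to 244 TPM in KO libraries and 355 to 399 TPM in G77S libraries, against 195 to 274 TPM in WT libraries. Pou5f1, the pluripotency factor, rose in G77S by 2.57 on the log2 scale (SE 0.41, edgeR adjusted p = 0.0104). Utf1 rose by 2.59 in G77S (SE 0.43, adjusted p = 0.0118) and by 3.33 in KO (SE 0.46, adjusted p = 0.0295). Nanog, another pluripotency factor, picked out once its values were known, averaged 40.4 ± 18.4 CPM in KO (SD, n = 2) and 119 ± 54.5 CPM in G77S (SD, n = 3), against 261 ± 38.1 CPM in WT (SD, n = 3), with edgeR adjusted p of 0.0529 for KO and 0.107 for G77S. DESeq2 called 2 epiblast genes higher and 1 lower in KO and 4 higher and 1 lower in G77S, and limma on log2(TPM + 1) called 2 higher and 1 lower in KO and 5 higher in G77S. Both G77S calls were lost without G77S replicate 1 or 2, at edgeR adjusted p of up to 0.0634 for Pou5f1 and 0.0534 for Utf1. The KO call of Utf1 was lost without KO replicate 2 (0.22), without WT replicate 2 (0.0924) or 3 (0.0808), without any 1 G77S library (up to 0.071), with only KO and WT fitted (0.099) and with the length offset (0.0527), and it was kept in 9 of 18 alternatives.

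Of 17 tested primitive endoderm genes, 2 were called higher in G77S and 2 in KO. DESeq2 called 8 higher in KO and 5 in G77S, and limma on log2(TPM + 1) called 2 in KO and 1 in G77S. Their summed level was 1217 to 1440 TPM in KO libraries and 1545 to 2386 TPM in G77S libraries, against 1209 to 1348 TPM in WT libraries. That sum mainly followed Lrpap1 and Dab2, which were abundant in every genotype. Lrpap1 averaged 698 TPM in KO and 1437 TPM in G77S, against 797 TPM in WT. Dab2 averaged 382 TPM in KO and 420 TPM in G77S, against 441 TPM in WT. The median log2 fold change of the 17 genes was 1.17 in G77S and 4.5 in KO. In KO it was 2.68 with low-count genes set to their counts or to the floor. Apart from the placental list in KO, that setting left the other medians given for families and lists as they were. Aqp8 rose in both, at 27.6 and 38.7 CPM in KO libraries and 0.781 to 5.04 CPM in G77S libraries, against at most 0.0558 CPM in a WT library (edgeR adjusted p = 0.00801 for KO and 0.00903 for G77S). The KO call of Aqp8 was lost without KO replicate 2 (0.0889) or WT replicate 2 (0.0644), and the G77S call in limma on log2(TPM + 1) (0.0546). Srgn, at 83 and 249 CPM in KO libraries against 0.0993 to 1.84 CPM in WT libraries, rose in KO (edgeR adjusted p = 0.0397) and lost that call without either KO library (up to 0.154), without G77S replicate 2 (0.0787) without WT replicate 2 (0.12) or 3 (0.0959) and with the length offset (0.058). Col4a1 rose in G77S (edgeR adjusted p = 0.0478) but was called in only 8 of 18 alternatives, and it was lost without any 1 library other than WT replicate 1 (up to 0.154), with only G77S and WT fitted (0.0716) and in limma on log2(TPM + 1) (0.152) and log2(TPM + 0.1) (0.0559).

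Cells from outside the embryo left little RNA. Of 16 cumulus and granulosa genes 11, including Amh, Fshr, Cyp19a1 and Foxl2, were listed at 0 in every library, and the summed level was 0.05 to 1.35 TPM in KO libraries and 0.18 to 1.1 TPM in G77S libraries, against 0.74 to 2.49 TPM in WT libraries. The 12 blood and immune genes summed to 2.72 to 3.59 TPM in KO libraries and 4.44 to 13 TPM in G77S libraries, against 2.22 to 8.35 TPM in WT libraries, and edgeR, DESeq2 and limma called 0 of the 2 tested in either comparison, with 0 at an unadjusted p under 0.05.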

How the data were processed

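Expected counts and TPM per gene were deposited for 8 libraries of amplified full-length cDNA. Per the submitters' processing notes, the tools were RSEM 1.3.1, STAR 2.6.1c, Trim Galore 0.4.5 and DESeq2 1.42.1, with build mm10 (GRCm38). Annotation release, strand setting and filters: not given in the sources used here. Also deposited, and used, was RSEM's abundance-weighted transcript length. RSEM divides reads shared between similar transcripts, so its expected counts are estimates. Gene IDs were matched to GENCODE M21 (99.6%). Expected counts were rounded and scaled by TMM, and 1 edgeR 4.0.16 quasi-likelihood fit over all 8 libraries (filterByExpr, R 4.3.3) gave Benjamini-Hochberg adjusted p over 13953 genes, called under 0.05. CPM values use TMM-scaled totals. The fit was tested on simulated counts. The genes followed, the lists and the tests were chosen with earlier results of these data known. All 8 genes are named; each list gives up to 3 called genes, smallest adjusted p first, or its most abundant genes where none was called. Alternatives were RLE scaling, no filter, a filter of 5 CPM in 2 libraries, 2 genotypes only, DESeq2 1.42.0, limma 3.58.1 on log2(TPM + 1) and log2(TPM + 0.1), a Y-linked term, an offset for length, a replicate block and leaving out each library.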

Additional observations from a re-analysis of the deposited data

How the results depend on the processing

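No member was called in KO against WT under any of the 18 alternatives. Of 144 KO values, 123 kept their sign and 21 did not, with reversed values from -0.19 for Anxa2 to 0.28 for Dppa1. With a replicate block the log2 change was -0.01 for Fabp3, 0.22 for Tspan8, 0.18 for Plac1 and 0.10 for Dppa1. With limma on log2(TPM + 1) and on log2(TPM + 0.1) it was -0.13 and -0.13 for Fabp3 and -0.09 and -0.09 for Anxa2. The length offset gave -0.12 for Fabp3. Leaving out 1 library gave -0.03 to 0.14 for Fabp3, -0.28 to 0.22 for Tspan8, -0.12 to 0.56 for Lgals3, -0.40 to 0.11 for Plac1, -1.46 to 0.14 for Fgfbp1, -0.54 to 0.28 for Dppa1 and -0.19 to 0.40 for Anxa2. The cause was not tested. Of 144 G77S values, 143 moved by less than the spread between replicates, and the other was Fabp3 at -2.26 without G77S replicate 1. In sign, Anxa2 changed from 0.19 to -0.03 with the length offset, and all values of the other genes stayed negative.

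Members called in G77S against WT numbered 3 to 6 when 1 library was left out, with 3 without G77S replicate 2, WT replicate 2 or WT replicate 3. Since G77S values chose the members, these counts describe the calls only and nothing is read from them. Genes called in KO against WT, 17 in all, numbered 547 with no filter, 60 with the stricter filter, 11 with 2 genotypes, 8 with the replicate block, 627 by DESeq2, 95 and 86 by limma, and 0 to 42 with 1 library left out. Genes called in G77S against WT, 473 in all, numbered 1336 with no filter, 746 with the stricter filter, 1523 by DESeq2, 1466 and 1307 by limma, 767 with the length offset and 86 to 638 with 1 library left out. The split of higher to lower was 182 to 291, against 1178 to 288 by limma on log2(TPM + 1) and 194 to 573 with the length offset. Whether replicate numbers pair libraries could not be told from these values. Deviations of same-numbered libraries, over all genes tested, correlated at -0.044 to 0.099. The replicate block gave 411 genes called in G77S. For G77S against WT it lowered the SE of Fgfbp1 from 0.61 to 0.32, while that of Fabp3 went from 0.23 to 0.24. With that block, the G77S calls of Tspan33 (adjusted p = 0.0669), Spry2 (0.056) and Elf5 (0.056) and the KO calls of Utf1 (0.0839) and Srgn (0.0627) did not pass. Where a library is left out of KO, the remaining one is assumed to vary like the other genotypes. Fgfbp1 had the fewest reads of the 8 genes, at 109 to 1175 expected counts.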
